A study of Mus musculus with 12 samples.

Results

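The effect of *Keap1* loss on the IL-4 state of macrophages was examined in 4 of the 12 arrays of the study, comprising 2 arrays of Keap1-deficient cells (KpCKO M2) and 2 arrays of wild-type cells (WT M2), chosen by the genotype and stimulus in the sample labels. All cells were bone marrow-derived macrophages (BMDMs), obtained by growing bone marrow of 8-week-old C57BL/6 mice with M-CSF for 7 days, and total RNA was labelled with Cy3 and hybridised to 1-colour Agilent mouse arrays. KpCKO mice carry floxed *Keap1* alleles and LysM-Cre, which is expressed from the lysozyme M locus in myeloid cells; WT mice served as their controls, so that the Cre and the floxed alleles were present in KpCKO cells only. M2 cells had received IL-4 at 10 ng/ml for 6 hours. Culture 1 was grown from male mice and culture 2 from female mice, each with 1 WT and 1 KpCKO mouse, and the same 4 mice supplied untreated cells (Con) and cells given LPS and IFNγ (M1). The replicate number therefore paired the arrays, and sex and culture cannot be told apart. With 2 mice per genotype, the p-values rest on how far the differences between groups varied from culture 1 to culture 2. This spread was pooled over all 12 arrays, which came from the same 4 mice, so it says little of the spread among other mice.

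Keap1 is the adaptor of a Cul3 ubiquitin ligase that keeps the transcription factor Nrf2 (*Nfe2l2*) low in unstressed cells. When Keap1 is lost, Nrf2 accumulates, pairs with small Maf proteins and binds antioxidant response elements of genes for glutathione synthesis, thiol reduction, NADPH supply and the detoxification of electrophiles. IL-4 acts through its receptor and Stat6 to place macrophages in the alternatively activated state, marked by genes such as *Arg1*, *Retnla*, *Chil3* and *Mrc1*.

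The antioxidant response element was searched for as TGACNNNGC or TGAGNNNGC on both strands of the 250 bases before each RefSeq gene start (GRCm38.p6). To show what such a promoter looks like among the genes that rose, the 4 promoters with these letters from the genes with the largest rises are given, each 5′ to 3′ on the strand of its gene and ending at the base before the start, with the matched letters in capitals.

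*Gsta3*, chr1:21240335-21240584, plus strand: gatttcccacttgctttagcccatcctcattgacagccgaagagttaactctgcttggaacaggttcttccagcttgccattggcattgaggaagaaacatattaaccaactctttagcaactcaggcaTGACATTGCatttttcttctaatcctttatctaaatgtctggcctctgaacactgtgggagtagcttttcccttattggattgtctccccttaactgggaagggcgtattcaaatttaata
*Fam181b*, chr7:93079629-93079878, plus strand: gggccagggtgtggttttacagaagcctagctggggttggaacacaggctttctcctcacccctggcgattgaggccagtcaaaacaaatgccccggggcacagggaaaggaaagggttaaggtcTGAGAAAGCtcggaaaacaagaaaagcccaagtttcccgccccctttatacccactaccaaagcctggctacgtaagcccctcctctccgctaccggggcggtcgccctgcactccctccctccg
*Il1f9*, chr2:24186226-24186475, plus strand: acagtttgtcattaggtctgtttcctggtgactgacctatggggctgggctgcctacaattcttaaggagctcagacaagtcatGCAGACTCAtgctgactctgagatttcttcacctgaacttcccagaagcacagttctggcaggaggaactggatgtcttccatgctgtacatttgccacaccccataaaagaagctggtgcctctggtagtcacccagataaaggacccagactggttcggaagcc
*Mical3*, chr6:121081628-121081877, minus strand: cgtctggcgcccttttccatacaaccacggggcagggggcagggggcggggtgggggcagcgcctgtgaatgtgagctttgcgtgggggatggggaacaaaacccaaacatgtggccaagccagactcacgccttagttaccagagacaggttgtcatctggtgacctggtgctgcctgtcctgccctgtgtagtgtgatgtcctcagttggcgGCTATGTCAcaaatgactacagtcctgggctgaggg

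The match starts 121 bases before the gene start in *Gsta3* and 125 in *Fam181b*, and lies on the opposite strand in *Il1f9* (TGAGTCTGC, 166 bases) and *Mical3* (TGACATAGC, 36 bases; 1 of 2 start windows of this gene). These letters are common. They occurred in 23.0% of all 32851 promoter windows. Counted by gene, with a match in any window, the share was 25.7% of all 27025 genes. It was 29.2% of the 11581 tested genes with a promoter, 32.9% of the 164 such genes that rose in KpCKO M2 and 23.3% of the 60 that fell. Among tested genes it was 33.3% of 18 glutathione S-transferases and 19.0% of 21 quinone, carbonyl and alcohol detoxifying enzymes. No match was found for *Prl2c3*, *Prl2c5*, *Gsta1* and *Nqo1*, which rose. A match describes the letters only, and a window without one says nothing of Nrf2 binding elsewhere.

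The recombined gene itself was lower in KpCKO M2, as the labels require. On the log2 scale relative to the 75th percentile of each array, used for all levels here, the *Keap1* signal was 3.07 and 2.85 in WT M2 (cultures 1 and 2) and 1.37 and 0.94 in KpCKO M2. Both KpCKO arrays lay below both WT arrays, but stayed well above background. The difference was −1.81 ± 0.24 (SE, n = 2 per genotype), a 3.50-fold decrease (limma, adjusted p = 0.0161, or 0.138 without the WT array of culture 1). Where the *Keap1* probe lies relative to the floxed exons was not examined, and what the remaining signal stands for was not tested. *Nfe2l2* transcript did not pass the test (−0.37, adjusted p = 0.367), and neither did the rest of the 12 other listed regulators of this pathway, among them *Cul3*, *Bach1*, *Sqstm1* and the small Maf genes.

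The arrays held macrophage RNA in both genotypes. The macrophage list includes *Lyz2*, the gene of the lysozyme M locus, which carries the Cre in KpCKO cells (−0.69, limma, adjusted p = 0.32). Its part in the summed level was not tested. All 11 macrophage markers were well above background on each M2 array, with a summed linear level of 582 to 631 times the 75th percentile in WT and 505 to 529 in KpCKO. Of them *Cd14*, the LPS co-receptor (−0.86, adjusted p = 0.0226), and *Aif1* (−0.61, adjusted p = 0.0418) passed the test downwards, and neither passed in any fit that left out 1 M2 array (highest adjusted p 0.152 for *Cd14* without the WT array of culture 2 and 0.277 for *Aif1* without that of culture 1). Neutrophil markers summed to 16.4 to 26.2 in WT and 16.6 to 28.5 in KpCKO, with 13 to 14 of 18 above background in WT and 11 to 16 in KpCKO; *Mmp8* (2.50) and *Fcnb* (1.52, above background on 1 of 4 arrays) were higher in KpCKO (adjusted p = 0.0289 and 0.0226, or 0.178 without the KpCKO array of culture 1 and 0.147 without the WT array of culture 2). The 16 neutrophil markers tested were divided, with 8 above 0 (7 in both cultures), 8 below 0 (5 in both cultures) and a median of 0.11. Stromal markers summed to 64.5 to 66.9 and 46.5 to 71.1, and T and NK cell markers to 0.223 to 0.298 and 0.110 to 0.217. The macrophage, T and NK cell, and osteoclast sums did not overlap between genotypes, while those of the other lists did. An exact test of 2 against 2 arrays cannot go below p = 0.333, so these separations alone show little. On each M2 array 3 to 4 of the 9 T and NK cell markers were above background. The 6 osteoclast markers summed to 2.11 to 3.97 in WT and 5.22 to 7.44 in KpCKO. *Dcstamp*, needed for osteoclast fusion, was 2.53-fold higher (limma, adjusted p = 0.00841, or 0.375 without the replicate block). B cell, dendritic cell, mast cell, eosinophil and erythroid lists each summed to at most 1.32 on any M2 array and held no gene past the test. In bulk RNA, fewer cells of a type and less RNA per cell cannot be told apart, and the part of these shifts in the results was not tested.

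In M2 cells 429 of 22143 genes differed between KpCKO and WT (1.94%; limma with culture as a block, Benjamini-Hochberg adjusted p under 0.05), of which 289 were higher (1.31% of genes) and 140 lower (0.632%). The fitted rises were larger than the fitted falls. The median rise was 1.46 with 84 genes over 4-fold and 16 over 16-fold, and the median fall was −1.30 with 36 genes over 4-fold and 2 over 16-fold. In 39 of the 289 rises and 11 of the 140 falls a genotype was at background on both of its arrays, so that these sizes are not exact. Several of the largest rises shrank with a normexp background correction, as given below. The count moved with the processing. Without the replicate block 198 genes passed (154 higher, 44 lower), with a normexp background correction 219 (123 higher, 96 lower), and with only the 4 M2 arrays in the fit 0 passed although 3627 did at an unadjusted p under 0.05. Leaving out the WT array of culture 1 gave 67 genes and that of culture 2 gave 98, and leaving out either KpCKO array gave 139. Among the 73 genes past the test that are described here by name, 22 passed whichever 1 of the 4 arrays was left out and 25 passed in none of these 4 fits, and the highest p came without the WT array of culture 1 for 49. With normexp 47 of the 73 passed and 26 did not. A rule with no test, which asked for a change over 2-fold in each culture, in 1 direction, with the higher genotype well above background, gave 309 higher (1.49% of 20748) and 154 lower (0.742%).

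**Figure D1:**
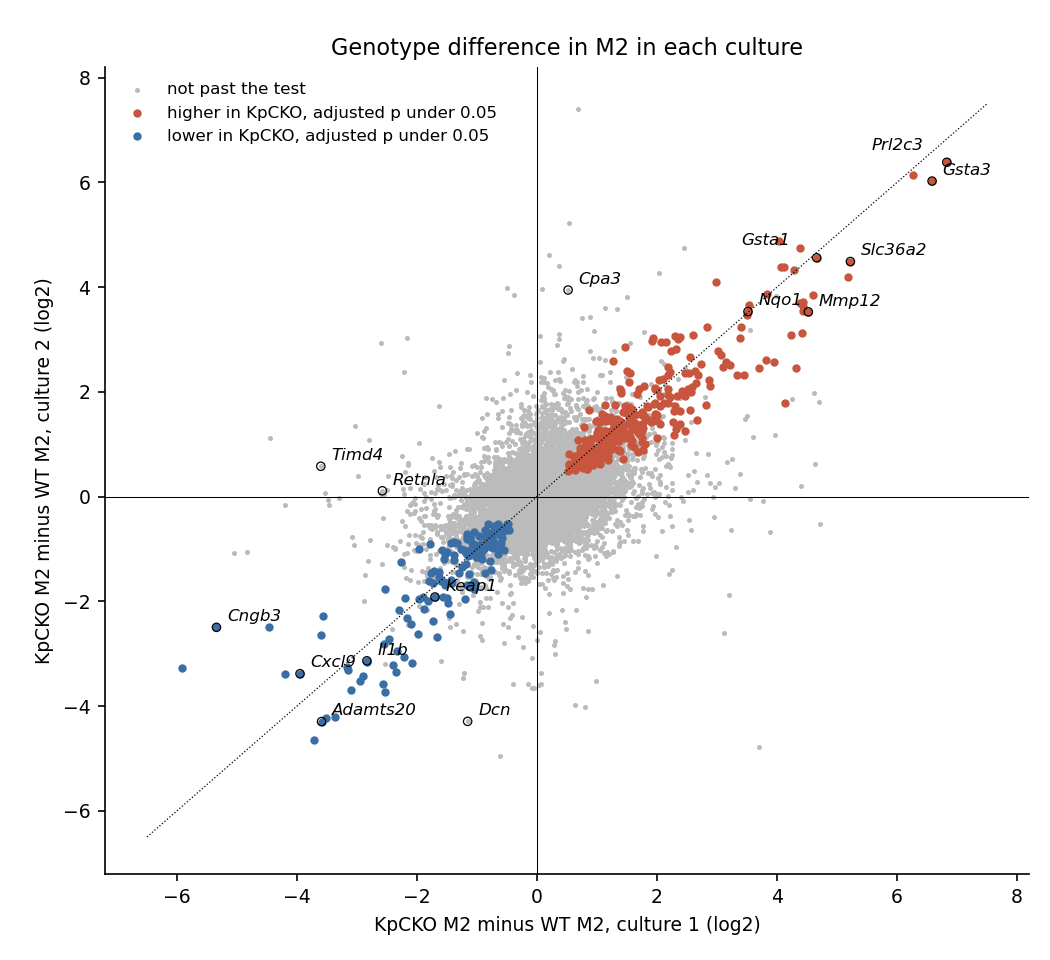
Genotype difference (KpCKO M2 minus WT M2, log2) of every gene in culture 1 (horizontal axis) and culture 2 (vertical axis), with the dotted line marking equal differences. The 289 higher genes past the test are red and the 140 lower genes blue. *Retnla*, at −2.58 in culture 1 and 0.11 in culture 2, did not pass, while *Adgre4* passed with differences of −5.92 and −3.28.

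The glutathione S-transferases, which conjugate glutathione to electrophiles, held the largest share of genes past the test among the 18 pathway lists. Of 20 tested, 9 rose (45%) and 0 fell, with a median difference of 0.68 (0.02 over all genes), and 7 rose without the replicate block. Over all genes 1.31% rose and 0.632% fell, which are the shares to set beside the counts of this and the following lists. *Gsta3* was at −2.48 and −2.39 in WT M2 and at 4.10 and 3.64 in KpCKO M2. The genotypes were far apart in both cultures, and the 79.1-fold rise (6.31 ± 0.50, adjusted p = 0.0028) was read by another probe of the gene as 6.37. *Gsta1* rose from −5.71 and −5.73 to −1.05 and −1.17, which is 24.4-fold (adjusted p = 0.000712). With a normexp background correction it was 4.66-fold and did not pass (adjusted p = 0.0541). *Gsta2* was not well above background in WT and was at least 3.60-fold higher in KpCKO (adjusted p = 0.00314), and *Gsta4* was 9.25-fold higher (adjusted p = 0.0213, or 0.159 without the WT array of culture 1). With normexp neither passed (−0.14, adjusted p = 0.87, for *Gsta2* and 0.89, adjusted p = 0.286, for *Gsta4*). The alpha class genes resemble each other in sequence, so that how much each probe reads of its relatives is uncertain. Of the mu class, *Gstm1* and *Gstm3* rose 2.96-fold and 3.15-fold and *Gstm2* 2.19-fold (adjusted p = 0.0378, or 0.251 without the WT array of culture 1). The membrane-bound *Mgst2*, which also makes leukotriene C4, rose 7.19-fold and *Mgst1* 1.92-fold (adjusted p = 0.0123, or 0.118 without that array). The theta class genes *Gstt1*, *Gstt2* and *Gstt3* had differences between −0.36 and −0.10 and did not pass.

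Genes that supply glutathione rose in part. *Slc7a11*, the cystine-importing subunit of system xc-, was at −3.16 and −3.35 in WT M2 and at 0.18 and −1.03 in KpCKO M2. Both KpCKO values exceeded both WT values, more so in culture 1, for a 7.12-fold rise (2.83 ± 0.33, adjusted p = 0.0103, or 0.0926 without the WT array of culture 1). With a normexp background correction the rise was 3.62-fold and did not pass (adjusted p = 0.149). *Gclm*, the modifier subunit of the rate-limiting glutamate-cysteine ligase, rose 3.45-fold (adjusted p = 0.00603, or up to 0.0673 with that array left out) and the glutathione reductase gene *Gsr* 3.17-fold (adjusted p = 0.0083, or up to 0.0809). The catalytic subunit *Gclc* (0.78, adjusted p = 0.156) and the glutathione synthetase gene *Gss* (0.84, adjusted p = 0.116) did not pass. The conjugate exporter *Abcc2* was above background on 1 of the 4 M2 arrays and did not pass (2.46, adjusted p = 0.096). In all 3 of 18 genes rose (16.7%, beside 1.31% of all genes) and 0 fell. Above 0 were 16 of the 18, beside 11806 of all 22143 genes, and the median was 0.53. Without the replicate block 1 passed.

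In the thioredoxin group, which reduces oxidised protein thiols and peroxides, 5 of 16 genes rose and 0 fell (median 0.25). This was 31.25%, beside 1.31% of all genes. *Srxn1*, which repairs overoxidised peroxiredoxins, was at 3.40 and 3.72 in WT and 5.78 and 5.35 in KpCKO, a 4.01-fold rise (adjusted p = 0.00925). *Prdx1* and *Prdx6* rose 2.77-fold and 2.79-fold, *Txnrd1* 2.40-fold and the methionine sulfoxide reductase gene *Msrb1* 1.67-fold. *Txn1* lay just outside the threshold (0.76, adjusted p = 0.0501), and the mitochondrial members *Txn2*, *Txnrd2* and *Prdx3* had differences between −0.11 and 0.01. With 1 array left out, 0 to 2 of these genes passed, and the highest adjusted p ran from 0.0742 (*Srxn1*, without the KpCKO array of culture 1) to 0.251 (*Msrb1*, without the WT array of culture 1). That of *Txnrd1* (0.233) also came without the KpCKO array of culture 1, and those of *Prdx1* and *Prdx6* without the WT array of culture 1. Of 11 enzymes that make NADPH, the reductant these systems use, malic enzyme 1 (*Me1*) rose from −1.17 and −1.25 to 0.46 and 0.31 (3.01-fold, adjusted p = 0.0015) and transaldolase (*Taldo1*) 2.03-fold (adjusted p = 0.00861, or 0.0822 without the WT array of culture 1), whereas the entry enzyme of the pentose phosphate pathway *G6pdx* was at 0.13 and did not pass; 0 fell.

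**Figure D2:**
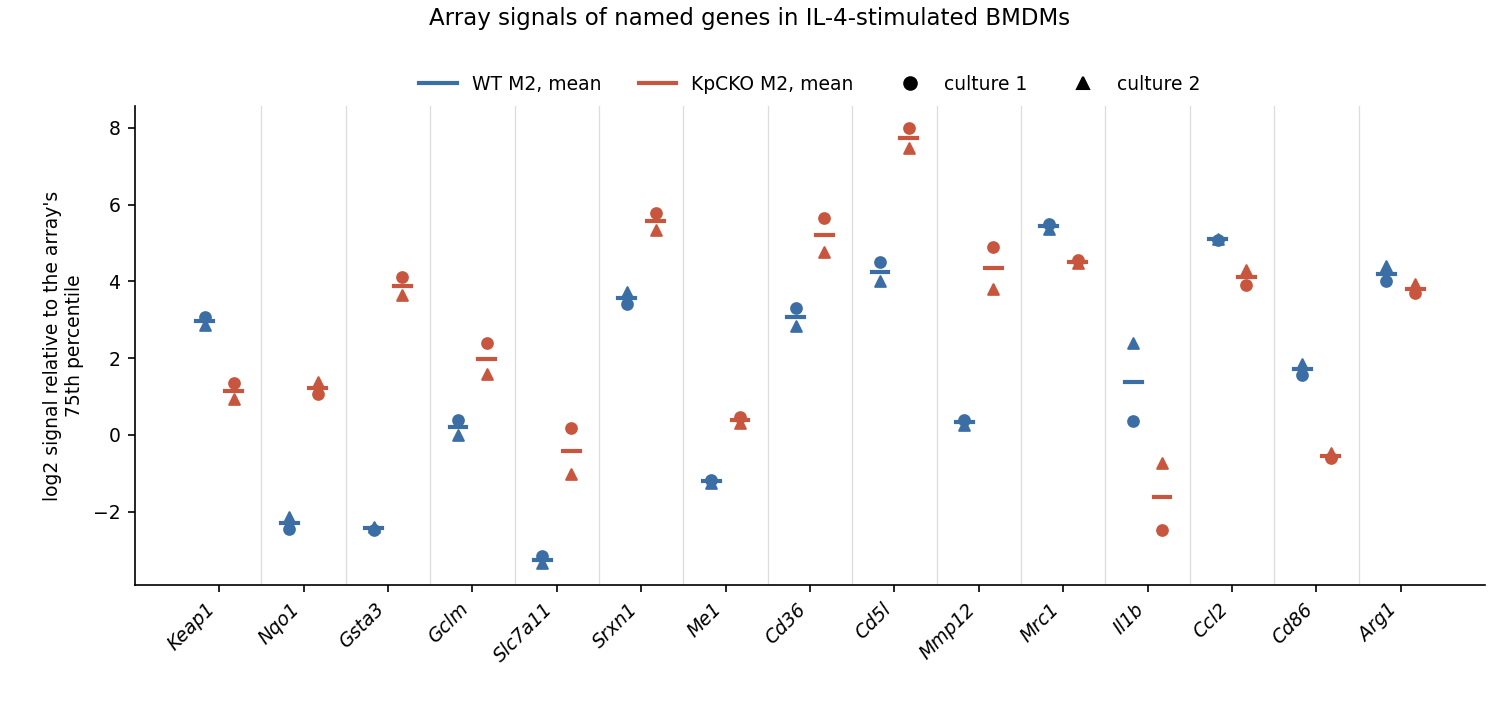
Levels of 15 genes on the 4 M2 arrays (vertical axis, log2 signal relative to the 75th percentile of the array; WT blue, KpCKO red; circles culture 1, triangles culture 2; bars are means of the 2 arrays). The KpCKO arrays lie above the WT arrays from *Nqo1* to *Mmp12* and below them for *Keap1*, *Mrc1*, *Il1b*, *Ccl2* and *Cd86*, whereas for *Arg1* the means differ by 0.38 on the log2 scale and did not pass.

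Enzymes that detoxify quinones, carbonyls, alcohols and related compounds formed the next group, with 8 of 25 genes higher, 0 lower and a median of 0.40. The 8 were 32% of the list, beside 1.31% of all genes. *Nqo1*, the quinone reductase used as a standard readout of Nrf2, was at −2.45 and −2.15 in WT M2 and at 1.07 and 1.38 in KpCKO M2. The differences in the 2 cultures, 3.52 and 3.53, were almost equal, and the 11.5-fold rise passed with every 1 array left out (adjusted p = 7.11e-05). Aldehyde oxidase (*Aox1*) rose 6.58-fold, carbonyl reductase 3 (*Cbr3*) 3.18-fold, the prostaglandin reductase *Ptgr1* 2.96-fold, *Esd* 2.80-fold, *Ephx1* 2.19-fold and *Akr1b8* 2.14-fold. *Adh7*, a retinol and alcohol dehydrogenase, was not well above background in WT and was at least 2.60-fold higher in KpCKO (adjusted p = 0.0176). *Cbr2*, in contrast, was at −2.37 in culture 1 and −0.99 in culture 2 and did not pass (−1.68, adjusted p = 0.228). Of these 8 genes, 3 to 4 passed with 1 array left out: *Nqo1* and *Ptgr1* passed in every such fit, and the highest adjusted p of the others ran from 0.0505 (*Cbr3*) to 0.249 (*Ephx1*), both without the WT array of culture 1. That of *Aox1* (0.053) came without the KpCKO array of culture 2, that of *Adh7* (0.123) without the WT array of culture 2 and that of *Akr1b8* (0.127) without the KpCKO array of culture 1. With normexp *Aox1* (0.52, adjusted p = 0.286), *Adh7* (−0.50, adjusted p = 0.384) and *Ephx1* (1.17, adjusted p = 0.131) did not pass.

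Heme and iron genes moved less. Of 24, the biliverdin reductase B gene *Blvrb* (2.84-fold), *Alas1*, which starts heme synthesis (2.63-fold), and the phagosomal metal transporter *Slc11a1* (3.30-fold) rose. This was 12.5% of the list, beside 1.31% of all genes, while 0 fell and the median was 0.10. With 1 array left out 0 to 2 passed, with a highest adjusted p of 0.0783 for *Blvrb* and 0.115 for *Slc11a1* without the WT array of culture 1 and 0.163 for *Alas1* without the KpCKO array of culture 1. *Hmox1*, the stress-induced heme oxygenase that is commonly listed among Nrf2 targets, was at 5.73 and 4.90 in WT and at 5.96 and 4.63 in KpCKO. The genotypes overlapped (−0.03 ± 0.32, adjusted p = 0.988). The ferritin genes *Fth1* (0.06) and *Ftl1* (0.53) did not pass either.

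**Figure D3:**
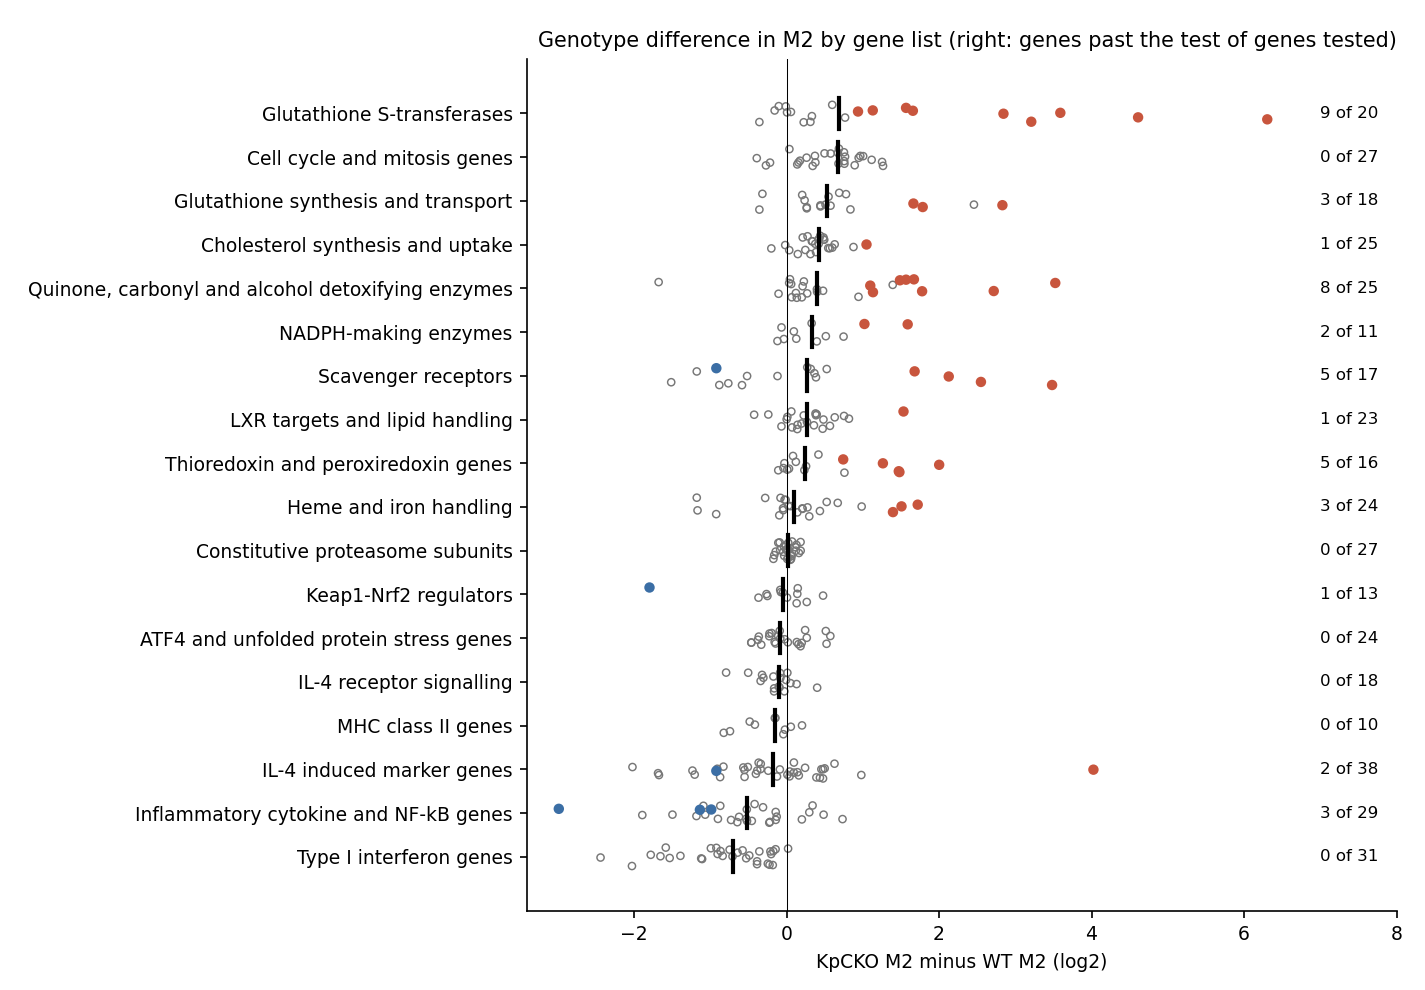
Genotype difference in M2 (horizontal axis, log2) of each tested gene of 18 pathway lists, with filled points for genes past the test (red higher, blue lower), open points for the rest, a black bar at the median and, at the right, the genes past the test of those tested. Glutathione S-transferases (9 of 20) and detoxifying enzymes (8 of 25) stand at the upper end in number, and type I interferon genes have the lowest median (−0.71) with 0 of 31 past the test.

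The 15 named genes with the largest rises held *Gsta3* and *Gsta1* and 13 genes outside the antioxidant lists. *Prl2c3* and *Prl2c5*, prolactin-family genes, rose from −5.51 and −3.88 to 1.32 and 2.50 and from −4.91 and −3.41 to 1.36 and 2.74. These were 97.5-fold and 73.8-fold rises (adjusted p = 7.11e-05 for both), and because family members are near-identical the probes may read the same transcripts. *Slc36a2*, a proton-coupled amino acid transporter, rose 29.0-fold, *Eef1a2*, an elongation factor isoform, 19.8-fold, *Pla2g7*, the platelet-activating factor acetylhydrolase, 16.4-fold, and the macrophage elastase *Mmp12* 16.3-fold. *Pla2g7* was at −0.32 and 0.06 in WT and at 4.11 and 3.70 in KpCKO (adjusted p = 0.00102), and *Mmp12* was at 0.39 and 0.27 and at 4.91 and 3.79 (adjusted p = 0.00412, or 0.0515 without the WT array of culture 1). In both cases the KpCKO arrays were well separated from the WT arrays, and the folds with a normexp background correction were 15.9 and 15.8. That correction gave 25.5-fold for *Prl2c3*, 27.0-fold for *Prl2c5* and 11.2-fold for *Slc36a2*, which passed, and 2.43-fold for *Eef1a2*, which did not (adjusted p = 0.192) and whose signal was at background on the WT array of culture 1.

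Several genes of this group came up from a WT signal not well above background, so that only a lower bound could be given. *Fam181b* was at least 16.99-fold higher, *Il1f9*, an IL-1 family cytokine, at least 11.9-fold, *Tnfsf4*, which encodes OX40 ligand, at least 6.08-fold and *Olfr20* at least 3.18-fold. With a normexp background correction none of these 4 passed, and their differences fell to 0.86 (*Fam181b*, adjusted p = 0.293), 0.53 (*Il1f9*, adjusted p = 0.539), 0.28 (*Tnfsf4*, adjusted p = 0.672) and −0.22 (*Olfr20*, adjusted p = 0.736), so that the bounds hold only for the signals as the scanner software gave them. *Fam181b*, *Tnfsf4* and *Olfr20* passed with every 1 array left out, whereas *Il1f9* (up to 0.0779 without the KpCKO array of culture 1) passed in none of these fits. *Mical3* (4.08, adjusted p = 0.0417) lost its call in the same 4 fits (up to 0.242 without that array) and with normexp (0.90, adjusted p = 0.286). The copper-dependent ferroxidase *Heph* rose 15.9-fold on its brighter probe (adjusted p = 0.00077), while its other probe stayed at background at −0.22, and with normexp it was 2.73-fold higher and did not pass (adjusted p = 0.217). The remaining gene of the 15, the RIKEN transcript A530064D06Rik, rose 16.5-fold (adjusted p = 0.00819, or 0.08 without the WT array of culture 1).

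Among the 15 named genes with the largest falls were receptors, chemokines and genes of several other kinds. *Adgre4*, an adhesion receptor of macrophages, was at −2.20 and −1.11 in WT M2 and at −8.12, at background, and −4.39 in KpCKO M2. The fall of 4.60 on the log2 scale (adjusted p = 0.0365) was unequal between the cultures, and adjusted p was 0.249 without the WT array of culture 1. The interferon-induced chemokine *Cxcl9* was at least 2.96-fold lower (adjusted p = 0.00539, or 0.052 without the same array), and *Ccl8*, a CC chemokine, 4.83-fold lower (adjusted p = 0.0084, or 0.0759 without the WT array of culture 2). *Adamts20*, *Cngb3*, *Hoxd13*, *Fxyd2*, *Paqr9*, *Olfr731*, *Ankfn1*, *Olfr187*, *Col14a1* and *Pilrb1* made up most of the rest, with fitted falls between −3.94 and −2.23. For *Adamts20* and *Hoxd13* the other probes of the gene were at background on the M2 arrays, and *Cngb3* (at least 4.95-fold), *Paqr9* (at least 5.29-fold), *Olfr731* (at least 3.22-fold) and *Col14a1* (at least 3.06-fold) were at background in KpCKO. Each of these 10 lost its call without at least 1 array, with highest adjusted p from 0.0669 (*Olfr187*) to 0.271 (*Ankfn1*), without the WT array of culture 2 for *Olfr731* and *Col14a1* and without that of culture 1 for the other 8. With normexp *Cxcl9*, *Paqr9*, *Olfr731*, *Col14a1* and *Pilrb1* did not pass, with adjusted p from 0.0805 (*Pilrb1*) to 0.27 (*Col14a1*).

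Inflammatory genes were lower on balance, although these cells had received IL-4 and neither LPS nor IFNγ. *Il1b*, the interleukin-1β gene, was at 0.35 and 2.40 in WT M2 and at −2.49 and −0.73 in KpCKO M2. Each KpCKO array lay below both WT arrays, culture 2 was higher than culture 1 in both genotypes, and the genotype differences of the cultures were −2.84 and −3.14. It was 7.92-fold (−2.99 ± 0.23, adjusted p = 0.00222), passed with every 1 array left out and did not pass without the replicate block (adjusted p = 0.449). The monocyte chemoattractants *Ccl2* (−0.99, adjusted p = 0.0109, or 0.0946 without the KpCKO array of culture 1) and *Ccl7* (−1.14, adjusted p = 0.0459, or 0.22 without the WT array of culture 1) also fell, though not with normexp (adjusted p = 0.0649 and 0.14). *Cd86*, the costimulatory ligand of CD28, was at 1.56 and 1.85 in WT and at −0.61 and −0.47 in KpCKO. The genotypes did not overlap, the 4.74-fold fall passed with every 1 array left out (adjusted p = 0.0015), and both probes of the gene fell, by 2.05 and 2.25.

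Over the 29 listed cytokine and NF-kB genes, 3 fell (10.3%, beside 0.632% of all genes) and 0 rose. Below 0 were 24 of the 29, beside 10337 of all 22143 genes, and the median was −0.52 (culture medians −0.31 and −0.72). At an unadjusted p under 0.05, 16 passed, 14 of them lower, beside 3176 of all 22143 genes in either direction. Without the replicate block 0 passed after adjustment. *Il6* was near the lower end of the signals on all arrays (−6.12 and −4.82 in WT, −5.57 and −5.83 in KpCKO) and its genotypes overlapped (−0.23, adjusted p = 0.905). *Il1a* (−1.07, adjusted p = 0.113), *Tnf* (−0.62, adjusted p = 0.535), *Irf1* (−0.22, adjusted p = 0.788) and *Cxcl2* (−1.89, adjusted p = 0.0857) did not pass. *Nos2* was not well above background in either genotype.

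Type I interferon genes, which cells also express at a low tonic level, had the lowest median of the pathway lists (−0.71, with −0.98 in culture 1 and −0.50 in culture 2). None of 31 passed by limma, and 1 did with trended and robust variances, beside 583 of all 22143 genes. At an unadjusted p under 0.05 by limma there were 14, all lower, beside 3176 of all genes. By the methods' t-test 0 passed after adjustment and 6 at its unadjusted p, beside 1737 of all genes. *Rtp4*, a chaperone induced by interferon, was at 3.40 and 2.85 in WT and at 0.52 and 0.85 in KpCKO (−2.44, adjusted p = 0.0749), *Ifit3* at −1.66 and −1.39 and at −3.88 and −2.72 (−1.78, adjusted p = 0.168), and *Irf7* at 0.57 and 0.97 and at −1.65 and −0.11 (−1.65, adjusted p = 0.18). For each of these 3 the KpCKO arrays were below both WT arrays. Within culture, 24 of the 31 genes were lower in KpCKO in both cultures, beside 6956 of all 22143 genes. The list median was −1.47 in untreated and −1.39 in M1 cells, and between −1.03 and −0.30 in M2 with 1 array left out.

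Genes that mark the IL-4 state were mostly not past the test. Of 38 tested, 1 rose (*Mmp12*) and 1 fell, beside 1.31% and 0.632% of all genes, with a median of −0.18 (culture medians −0.36 and 0.04). At an unadjusted p under 0.05 there were 12, 9 lower and 3 higher, beside 3176 of all 22143 genes. With trended and robust variances 5 passed, beside 583 of all genes. The gene that fell past the main test was *Mrc1*, the mannose receptor, at 5.50 and 5.38 in WT M2 and at 4.56 and 4.48 in KpCKO M2. The KpCKO arrays lay below the WT arrays by 1.89-fold (adjusted p = 0.0297), but the call was lost whichever 1 array was left out (up to 0.193 without the WT array of culture 2), without the replicate block and with normexp (adjusted p = 0.0649). *Arg1*, the arginase of alternative activation, was at 4.01 and 4.39 and at 3.69 and 3.94 (−0.38, adjusted p = 0.663). The chemokine *Ccl17* was at −1.09 and −0.44 and at −1.28 and −0.05, with the genotypes interleaved (0.10, adjusted p = 0.953), and the chitinase-like *Chil3* was at 5.07 and 4.98 and at 5.66 and 5.35 (0.48, adjusted p = 0.409).

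Some marker genes had unequal values in the 2 cultures. *Retnla*, the resistin-like secreted protein of IL-4-treated macrophages, was at 5.18 and 6.11 in WT M2 but at 2.60 in KpCKO of culture 1 and 6.23 in KpCKO of culture 2. The lectin *Clec10a* was at 4.48 and 5.37 and at 2.07 and 4.41, and the eotaxin *Ccl24* at 3.42 and 3.84 and at 0.61 and 2.61. In these 3 genes the KpCKO array of culture 1 was the lowest of the 4. Both KpCKO arrays were below both WT arrays for *Clec10a* and *Ccl24* but not for *Retnla*, and none passed (adjusted p = 0.71, 0.252 and 0.185). The IL-1 receptor antagonist gene *Il1rn* was lower in both cultures without passing (−1.67, adjusted p = 0.0675).

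The response to IL-4 itself was then read as M2 minus Con within each genotype. IL-4 changed 3751 genes in WT cells (16.9%) and 2296 in KpCKO cells (10.4%). Of the 38 marker genes, 29 rose with IL-4 in WT, 27 in KpCKO and 26 in both; *Cd200r1*, *Clec10a* and *Igf1* passed in WT only, and *Pparg* in KpCKO only. Over all 38 the median response was 2.89 in WT and 2.39 in KpCKO. The difference between the 2 responses passed for none of the 38 after adjustment, beside 2 of all 22143 genes. At an unadjusted p under 0.05 it passed for 4 of the 38 (*Cdh1*, *Cish*, *Egr2* and *Tfrc*), beside 450 of all genes. The M2 arrays shared a slide that was scanned on another day than the untreated slide, so that IL-4 and slide cannot be told apart in either response, whereas the genotypes were compared within a slide. The receptor and signalling genes of this pathway held 0 of 18 past the test between genotypes in M2, with *Stat6* at −0.10 and the receptor gene *Il4ra* at −0.08. With trended and robust variances 0 passed. At an unadjusted p under 0.05 there were 2 of the 18, beside 3176 of all 22143 genes.

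**Figure D4:**
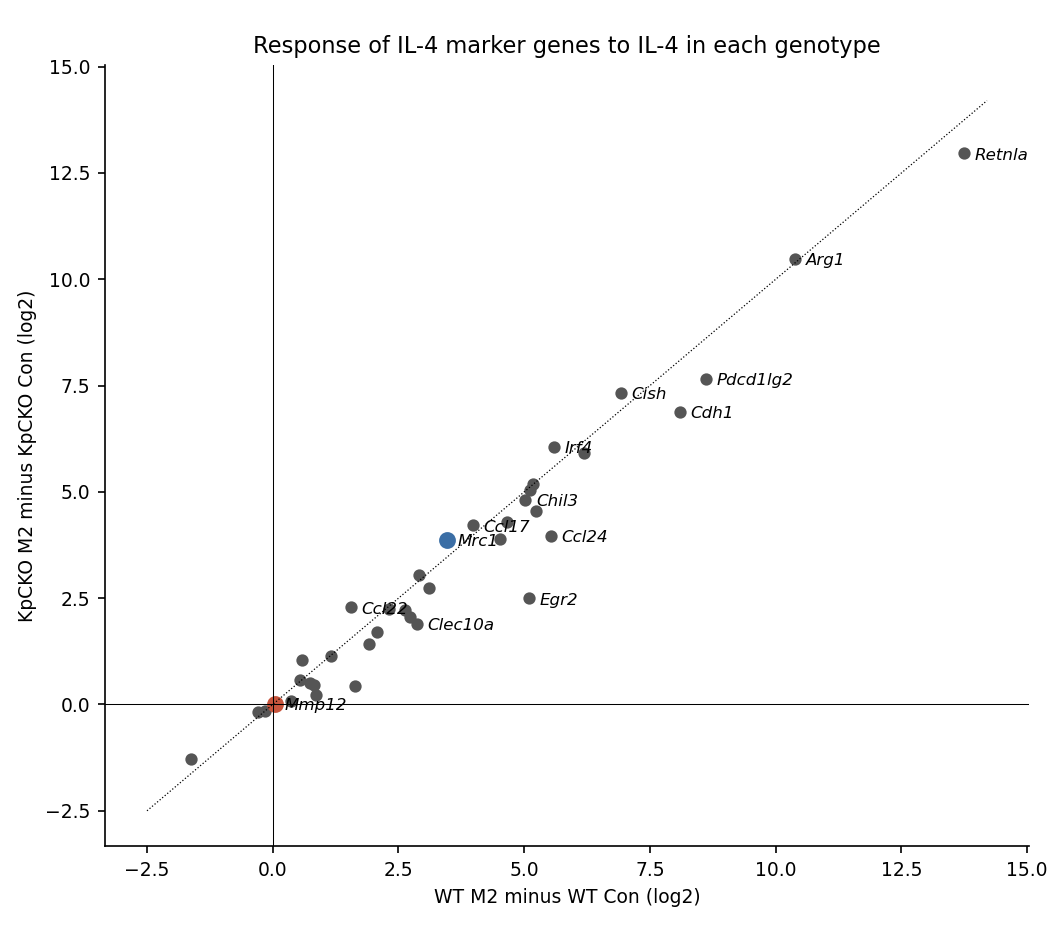
Response of the 38 IL-4 marker genes to IL-4 (M2 minus Con, log2) in WT (horizontal axis) and KpCKO cells (vertical axis); the dotted line marks equal responses. Most points lie near the line. *Mmp12* (red, higher in KpCKO M2) had responses of 0.03 and 0.01 that did not pass and *Mrc1* (blue, lower in KpCKO M2) rose in both; responses of genes at background in untreated cells are fitted values, not bounds.

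Scavenger receptors, which take up modified lipoproteins and dying cells, divided. *Cd5l*, a secreted protein of tissue macrophages, was at 4.50 and 4.003 in WT M2 and at 8.01 and 7.46 in KpCKO M2. The genotypes were far apart in both cultures, and the 11.2-fold rise passed with every 1 array left out (adjusted p = 8.73e-05). *Marco* rose 5.86-fold (adjusted p = 0.00642, or 0.0552 without the KpCKO array of culture 1), the fatty acid translocase *Cd36* 4.37-fold (adjusted p = 0.00309) and *Colec12* 3.21-fold (adjusted p = 0.00348, or 0.0502 without the WT array of culture 1), while *Mrc1* fell, giving 4 higher and 1 lower of 17. The hemoglobin receptor *Cd163* (−1.18, adjusted p = 0.352), *Msr1* (−0.88, adjusted p = 0.131) and *Timd4* (−1.51, adjusted p = 0.65) did not pass.

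Lipid genes were mostly above 0 by small amounts, beside 11806 of all 22143 genes above 0. Cholesterol synthesis and uptake genes were above 0 for 23 of 25, with a median of 0.42 (culture medians 0.55 and 0.25), and 1 passed, beside 1.31% of all genes, the HMG-CoA synthase gene *Hmgcs1* (2.07-fold, adjusted p = 0.0401, or 0.255 without the WT array of culture 1). The list medians in untreated and M1 cells were 0.73 and 1.46. Of 23 targets of the oxysterol receptors LXR and other lipid genes, 20 were above 0, with a median of 0.27, and 1 passed, the desaturase *Scd2* (2.89-fold, adjusted p = 0.0365, or 0.239 without that array); the cholesterol exporters *Abca1* (0.40) and *Abcg1* (0.47) did not pass.

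Cell cycle genes were above 0 for 24 of 27, beside 11806 of all 22143 genes. Their median was 0.67, but this came mainly from culture 2, where the median was 1.12 against 0.25 in culture 1. None passed by limma, and 0 with trended and robust variances. At an unadjusted p under 0.05 there were 13, 12 of them higher, beside 3176 of all 22143 genes in either direction. *Top2a* was at −1.65 and −1.84 in WT and at −1.38 and −0.57 in KpCKO, and *Ccnb1* at −1.82 and −2.32 and at −1.56 and −0.57. In both genes each KpCKO array was above both WT arrays, by little in culture 1. Within culture, 20 of the 27 genes were higher in KpCKO in both cultures, beside 8002 of all 22143 genes. Constitutive proteasome subunits all lay between −0.17 and 0.19 with 0 of 27 past the test (0 at an unadjusted p under 0.05, and 0 with trended and robust variances). ATF4 and unfolded protein stress genes had a median of −0.09 with 0 of 24 past the test (2 at an unadjusted p under 0.05, 0 with trended and robust variances). MHC class II genes had a median of −0.15 with 0 of 10 past the test (1 and 1). Over all 22143 genes 3176 were at an unadjusted p under 0.05, and 583 passed with trended and robust variances.

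Most changes in M2 were also present without IL-4. Of the 289 genes higher in KpCKO M2, 206 were also higher in KpCKO Con, which is 71.3% of the M2 list and 66.2% of the 311 genes of the Con list, and 79 of the 140 lower genes were also lower (56.4% and 43.6% of 181), with 0 called in opposite directions. In all, 492 genes passed in untreated cells (2.22%) and 3591 in M1 cells (16.2%). In M1 cells 210 of the 289 were also higher (72.7%, and 12.6% of the 1669 of that list) and 89 of the 140 also lower (63.6%, and 4.63% of 1922), while 4 were called in the opposite direction. The differences themselves were taken from separate arrays, but the same 4 mice supplied all of them. The calls are not independent, since the spread of each gene was pooled over all arrays and was the same in each comparison. A gene with a low estimate of spread passes more easily under every stimulus. How far this raised the shares of calls in common was not tested. *Nqo1* differed by 3.23 in Con, 3.50 in M1 and 3.52 in M2, *Cd5l* by 3.25, 3.50 and 3.48, and *Il1b* by −2.95, −2.96 and −2.99. These 3 genes thus had nearly equal differences under each stimulus. *Gsta3* differed by 5.54, 7.90 and 6.31 and *Slc7a11* by 3.17, 1.30 and 2.83.

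The test of the difference between stimuli passed for few genes. The genotype difference in M2 differed from that in untreated cells for 2 genes (0.00903%) and from that in M1 cells for 22 (0.0994%). *Olfr20* passed in both, but it was above background in KpCKO M2 alone, so that its value in M2 is only a bound (at least 3.18-fold) and it had no measured difference in Con or M1. *Adh7* passed against M1, with fitted differences of 5.68 in M1 and 1.78 in M2 that are no exact sizes, since its WT signal was at background under both stimuli. *Marco* differed by 2.55 in M2, 1.94 in Con and −0.17 in M1, where the difference between stimuli did not pass (M2 less M1, 2.72, adjusted p = 0.0658). *Il6*, dim in M2, differed by −3.21 in M1 and by −0.23 in M2, and *Il1a* by −3.15 and −1.07, without passing the test of the difference (adjusted p = 0.134 and 0.0913). Genotype was compared within a slide in each case, but the stimuli lay on different slides.

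**Figure D5:**
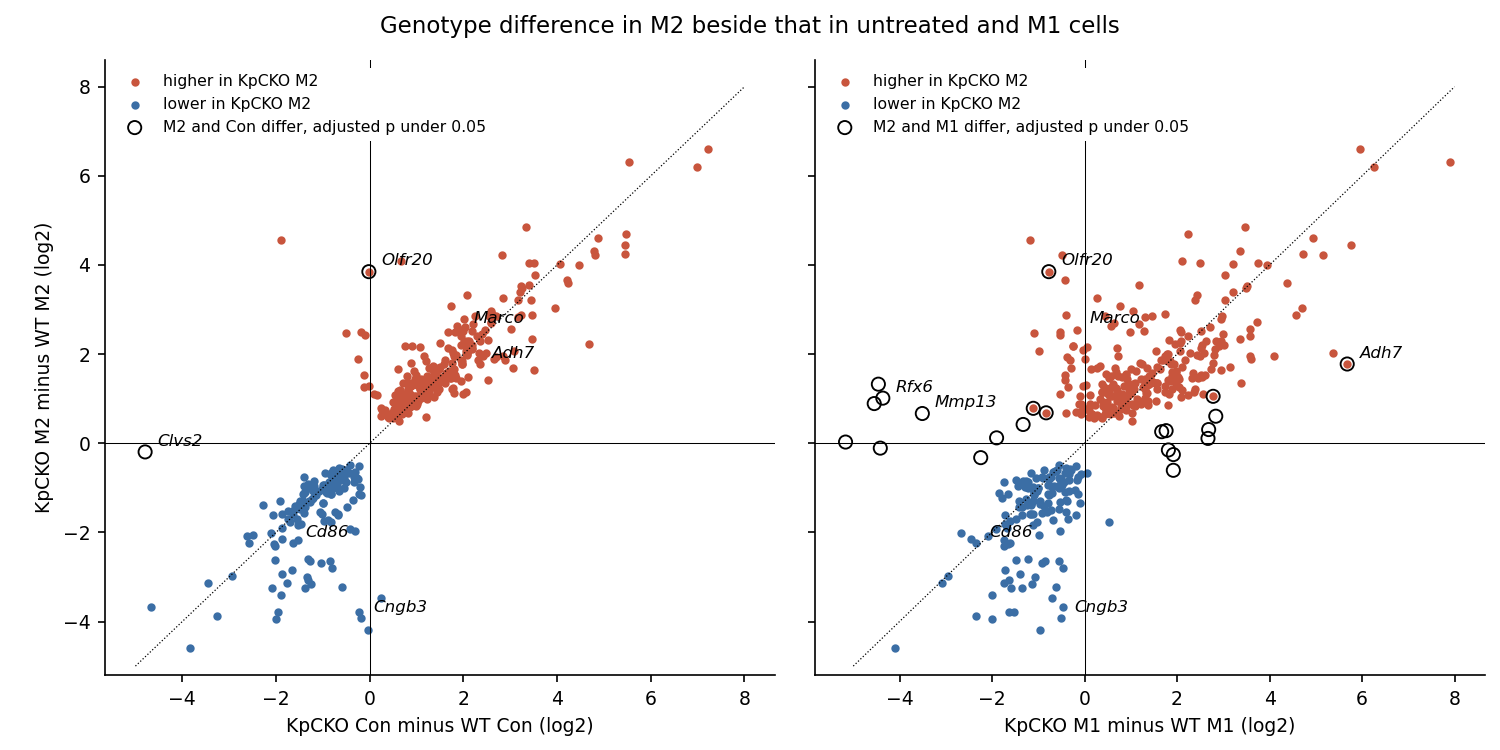
Genotype difference in M2 (vertical axis, log2) against that in untreated cells (left) and in M1 cells (right) for genes past the M2 test (red higher, blue lower in KpCKO) and for genes whose difference between the stimuli passed its own test (open circles); the dotted line marks equal differences. Most of the 429 genes lie in the same direction under both stimuli, with 2 circled genes on the left and 22 on the right.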

How the data were processed

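Total RNA of BMDMs was measured on 12 arrays of 1-colour Agilent mouse design, of which 4 were M2 arrays. Spot intensities were deposited as Agilent Feature Extraction (version 10.7.3.1) output for each array, with the processed signal background-corrected by that software; the authors also deposited a table of log2 values, which matched the scanner values after subtraction of each array's 75th percentile and centring of each probe on its median over the arrays. The number of arrays limits the precision. No spot was saturated, and 66.4% to 71.2% of 41174 probes were well above background on the M2 arrays.

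Here log2 of the processed signal less the 75th percentile of each array was used. A gene was read by its brightest probe, and 26690 probes carried a symbol that matched RefSeq, giving 18217 symbols; other probes were kept as their own unit. Of 22352 genes that 1 or more groups showed well above background on each of their arrays, 209 with an outlier spot were left out and 22143 tested, 14513 of them named. limma (version 3.58.1, R 4.3.3) was fitted to all 12 arrays with 6 groups and culture as a block, leaving 5 residual degrees of freedom, and two-sided p-values were adjusted by Benjamini-Hochberg. An exact test of 2 against 2 arrays cannot go below p = 0.333. The pairing comes from the series design, by which both genotypes of a number were grown together; deviations of same-numbered arrays from their group means correlated between 0.162 and 0.595 over 15 pairs of groups. Each slide held the 4 arrays of 1 stimulus.

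Where a genotype was not well above background on either array, "at least" folds set the other genotype's mean against the higher, per array, of the lowest signal well above background and the probe's own signal. On simulated data of the M2 comparison with 22143 genes, 44% of 2-fold and 87% of 4-fold changes were recovered with 8 false calls. Named were *Keap1*, genes the study names for these cells, members of 18 pathway and 10 cell type lists, the 15 largest rises and falls and the 5 largest interactions each way among genes past the test, over 2-fold in 1 direction in each culture and well above background in the higher group. The members, lists and rules were chosen with earlier results of these data known. Alternatives changed the normalization, background correction, filter, floor, probe choice, block, arrays fitted and variance prior, or left out each M2 array; the methods' t-test was also run. Promoters are those of RefSeq, GRCm38.p6.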

Additional observations from a re-analysis of the deposited data

Results flagged for a closer look

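These results were picked out because the genotype difference in M2 differed from that under another stimulus by a test of the difference itself (limma, adjusted p under 0.05). Against untreated cells 2 genes passed. The genotype difference of *Clvs2* in M2 less that in Con was 4.60 (adjusted p = 0.00791); its signal was above background only in WT Con among these 4 groups, so the value rests on untreated cells and is no exact size. That of *Olfr20* was 3.87 (adjusted p = 0.037), and its signal was well above background only in KpCKO M2 among the M2 and Con groups, so that this value is no exact size either.

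Against M1 cells 22 genes passed. *Bnipl* (5.44), *Rfx6* (5.37) and *Cstdc2* (5.19) were at background in both genotypes in M2 and above it in WT M1, and *Olfr20* had a value of 4.62. These 4 are fitted values that rest on background signals and are neither bounds nor exact sizes. *Mmp13*, a collagenase, had 4.17 (adjusted p = 0.047) and fell in M1 from 6.06 and 6.99 (WT) to 2.75 and 3.28 (KpCKO), while its M2 levels were −0.27 and −0.11 (WT) against 0.72 and 0.24 (KpCKO). The genotypes were far apart in M1 and close in M2.

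Values below 0 mean a higher genotype difference in M1. *Adh7* had −3.90 (adjusted p = 0.0288), and its KpCKO signal was −1.80 and −1.22 in M1 against −5.23 and −5.41 in M2, with WT at background in both, so that its value is no exact size. *Sel1l3* had −2.53, *Cdon* −2.38, *Ptchd1* −2.23 and *Abhd15* −2.17. The *Cdon* signal was at background on each WT M1 array, so that its value is no exact size either. With a normexp background correction 0 genes passed either test.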

How the results depend on the processing

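The count of genes that differed between KpCKO and WT in M2 (429) stayed within 1.5 times under quantile normalization, the authors' values, a filter or floor on dim signals, other uses of the probes, the mouse as a random block, a fit of only the Con and M2 arrays, and trended and robust variances. It fell to 219 with normexp, which also moved the median difference of all genes to −0.22, to 235 with no filter on dim probes, to 0 with only the 4 M2 arrays (3627 at an unadjusted p under 0.05), to 0 by the methods' t-test (1737), and to between 67 and 139 with 1 M2 array left out. Why these counts moved was not tested. The fits that leave some arrays out hold fewer arrays, and the part of this in their counts was not tested either. The fold rule gave 118 higher and 92 lower genes with normexp, 89 lower without pairing by culture, and 670 to 734 higher and 397 to 446 lower with 1 culture alone.

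Without the replicate block 198 genes passed, and the difference between M2 and M1 passed for 10 genes in place of 22. Of the 73 named genes past the test, 47 kept their call with normexp, which *Cd14*, *Aif1*, *Gstm2* and *Fcnb* lost beside the genes given above, and 46 kept it without the block and 27 lost it there, among them *Il1b*, *Mrc1*, *Gclm*, *Slc7a11*, *Marco* and *Cd36*.

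The difference between M2 and Con (2 genes) passed for 0 genes with normexp, with genes above background on all 4 M2 arrays, with a floor, with only Con and M2 arrays, and with trended and robust variances, for 1 with no filter, and for 0 to 1 with 1 array left out; at an unadjusted p under 0.05 these fits gave 305, 312, 520, 826 and 392 genes. That between M2 and M1 (22) passed for 46 genes after quantile normalization, 0 with normexp (1896 unadjusted), 4 with no filter, 50 with a floor, 13 when the probes of a gene were averaged, 42 probes when each was tested alone, 142 with trended and robust variances, and 0 to 3 with 1 array left out.

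Some genes changed sign, nearly all dim or not past the test. With normexp *Olfr20* was at −0.22, *Nos2* at −0.77, *Gsta2* at −0.14, *Adh7* at −0.50, *Fcnb* at −0.65, *Hmox1* at 0.11 and *Il4ra* at 0.014, and the M2 less Con values of *Clvs2* and *Olfr20* were −0.17 and −0.22. With a floor *Nos2* was at −0.17. With 1 M2 array left out *Il6* ran from −0.88 to 0.43, *Tnf* from −1.34 to 0.095, *Irf1* from −0.44 to 0.0017, *Ccl17* from −0.50 to 0.70, *Hmox1* from −0.23 to 0.18, *Retnla* from −3.27 to 0.80, *Stat6* from −0.21 to 0.0023 and *Il4ra* from −0.20 to 0.025. *Olfr20*, *Gsta2*, *Adh7* and *Fcnb* passed in the main setting, and each was at background in WT M2.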

Other observations

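A few genes had unequal genotype differences in the 2 cultures. The neutrophil granule genes *Camp*, *Ngp*, *Ltf* and *S100a9*, and *Mmp9* and *Lcn2*, differed by −0.30 to 0.18 between genotypes in culture 1 and by −1.59 to −1.34 in culture 2, and none passed the test. The matrix gene *Dcn* of stromal cells differed by −1.16 in culture 1 and −4.29 in culture 2, and the mast cell protease gene *Cpa3* by 0.52 and 3.94. *Timd4*, a receptor for phosphatidylserine on dying cells, differed by −3.60 and 0.58. These genes did not pass the test, and with 1 mouse of each genotype per culture the mouse, its sex and the culture cannot be told apart.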
